A study of Mus musculus with 16 samples.

Results

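The Ly6 family on mouse chromosome 15 was followed as 8 named genes of the 50686 genes counted: Ly6d, 2010109I03Rik (Ly6m in RefSeq), Ly6e, Ly6a, Ly6i, Ly6c1, Ly6c2 and Ly6k. The 8 were taken by name from the cluster and chosen by measured values of these same libraries, namely the higher Ly6d and 2010109I03Rik counts with Senexin B. Senexin B differences of the members are therefore a description printed without p-values, and counts of calls in that contrast stand beside the share of all genes with nothing read from them. Tests to be read were kept for genotype and for the difference in response between genotypes. The latter is built from the same Senexin B differences, so for Ly6d and 2010109I03Rik it is not independent of the choice. RNA was sequenced from 8 cell lines made from bone marrow of C57BL/6N mice by retroviral BCR-ABL1p185, an oncogene that turns early B cells into leukemic lines. Of these lines, 4 were Cdk8 fl/fl, named wildtype in the labels, and 4 were Cdk8 Δ/Δ Vav-Cre, named knockout, in which a Cre driven by the Vav promoter removes Cdk8 in blood cells. Each line was cultured for 48 h with 1 µM Senexin B, an inhibitor of the kinases CDK8 and CDK19, or with the solvent DMSO, which gave 16 libraries in 4 groups of 4. The lines were derived separately, so a p-value for genotype within a treatment measures the spread between lines. Fits that hold both treatments without a term for the line take the libraries of a line as independent. Every group thus shares BCR-ABL1p185, and the Cdk8 Δ/Δ groups also carry Vav-Cre, which cannot be told apart from the loss of Cdk8 here.

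Ly6 proteins are small cell surface proteins held in the outer membrane by a glycosylphosphatidylinositol (GPI) anchor. Their extracellular fold, the LU domain, is built on a fixed set of cysteines paired by disulfide bonds. In mouse blood they are best known as stage markers: Ly6a is Sca-1 of hematopoietic stem cells, Ly6c1 and Ly6c2 encode Ly6C of monocytes, and Ly6d is gained by lymphoid progenitors as they take the B cell path.

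Library totals ran from 13145876 to 18349425 counts, with a median of 15473664.5. Values are counts per 1000000 counts of a library (CPM), scaled with TMM factors over the 16 libraries, and levels of different genes are compared only as FPKM, which also divides by gene length. All libraries carried B lineage transcripts, with Pax5 between 785 and 1615 CPM and Ebf1 between 694 and 1283 CPM. Of the 6 T cell markers none passed 0.274 CPM, and Cd3g, S100a8, S100a9, Elane and Pf4 had no count in any library. Hbb-bt ran from 2.75 to 263 CPM, Lyz2 from 0.163 to 24.6 CPM and Pecam1, which B cells also express, from 48.5 to 496 CPM, and their part in the results below was not tested. Cdk8 itself was counted in all groups, at 64.8 ± 3.01 CPM in Cdk8 fl/fl with DMSO and 44.3 ± 7.09 CPM in Cdk8 Δ/Δ with DMSO (SD, n = 4 lines each). The DMSO groups did not overlap, at 61.7 to 68.6 and 35.3 to 52.0 CPM, and the Senexin B groups did, at 55.1 to 89.3 and 41.1 to 61.6 CPM. Counts over the whole gene do not isolate the deleted part. Pairs of DMSO and Senexin B libraries with the same number deviated together from their group means, so the number is treated as the line.

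Ly6d, the B lineage marker that results turn on most, lies on chr15:74762056-74763620 (GRCm38, minus strand, 3 exons). Its coding sequence spans chr15:74762359-74763560, without the stop codon, and that of 2010109I03Rik spans chr15:74879851-74881665, both in 3 coding exons. The first 180 coding bases of the 4 members with most counts are printed to show what separates them for a 50-base read. Capitals mark every in-frame cysteine codon, and which of them belong to the LU fold was not determined.
Ly6d: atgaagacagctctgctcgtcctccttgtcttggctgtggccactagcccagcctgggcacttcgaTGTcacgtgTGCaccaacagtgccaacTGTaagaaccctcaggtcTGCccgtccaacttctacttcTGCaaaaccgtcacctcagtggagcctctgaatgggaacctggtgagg
2010109I03Rik: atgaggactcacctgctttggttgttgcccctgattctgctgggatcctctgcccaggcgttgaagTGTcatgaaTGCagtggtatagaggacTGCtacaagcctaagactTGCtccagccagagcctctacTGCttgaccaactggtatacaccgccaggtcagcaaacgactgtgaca
Ly6e: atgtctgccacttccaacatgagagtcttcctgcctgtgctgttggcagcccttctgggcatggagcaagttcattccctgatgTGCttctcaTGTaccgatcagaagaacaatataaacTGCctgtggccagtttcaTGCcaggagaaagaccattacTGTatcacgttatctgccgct
Ly6a: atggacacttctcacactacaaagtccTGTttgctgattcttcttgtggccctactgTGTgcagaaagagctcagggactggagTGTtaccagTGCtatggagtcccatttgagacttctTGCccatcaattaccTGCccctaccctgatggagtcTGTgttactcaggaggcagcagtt

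The printed stretch held 5 cysteine codons in Ly6d, 2010109I03Rik and Ly6e and 7 in Ly6a, of 11, 11, 10 and 12 in their whole coding sequences. In Ly6d and 2010109I03Rik these 5 stood at the same places, codons 23, 26, 32, 38 and 45, whereas the Ly6e codons stood at 29, 32, 41, 47 and 54. Coding identity between these 2 genes was 51.1% over 397 aligned bases, and no 50-base word of either coding sequence was found in the other. Every one of the 695 words of 50 bases in the Ly6d transcripts, and of the 4184 in the Ly6e transcripts, was absent from all other annotated transcripts (GENCODE M21). Of the 2010109I03Rik words 5.32% occurred in another gene. Reads of these 3 genes can therefore be told from those of their relatives nearly everywhere.

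The other genes are closer to each other. Ly6a and Ly6i shared 86.3% of aligned coding bases, and Ly6c1 and Ly6c2 97.7%, with 9 differing bases in 393. A 60-base window from base 6 to base 65 of the latter 2 is printed because it holds 6 of those 9 differences, in capitals.
Ly6c1: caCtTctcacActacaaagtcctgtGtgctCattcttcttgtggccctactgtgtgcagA
Ly6c2: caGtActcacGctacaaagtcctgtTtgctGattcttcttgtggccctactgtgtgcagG

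For Ly6c1 32.8% of 50-base words, for Ly6k 32.7%, for Ly6a 19.0%, for Ly6c2 14.5% and for Ly6i 4.76% were shared with at least 1 other gene. By default the counting program leaves out reads that map to more than 1 place or overlap more than 1 gene, so these 5 levels are uncertain. The Ly6k words are those shared with Gm17189. Ly6k overlaps Gm17189 on the opposite strand over 395 of 829 exon bases, and the other members overlap no exon of another gene.

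Ly6e, a broadly expressed member also named TSA-1 and Sca-2 and known as an interferon-induced gene, made up nearly all of the family's RNA. It took 661735 of the family's 668701 counts (99.0%) and ranked 36 of the 29942 genes with a count by mean FPKM, with a range of 378 to 1179 FPKM. Ly6a came next, at 14.8 ± 15.3 FPKM in Cdk8 fl/fl with DMSO, followed by Ly6d at 2.03 ± 1.24 FPKM (SD, n = 4). Every Ly6e value lay above every Ly6a value in each group. Ly6a and Ly6d overlapped in 3 of the 4 groups, the exception being Cdk8 Δ/Δ with DMSO, where the lowest Ly6a value was 3.06 and the highest Ly6d value 2.47 FPKM. The remaining members were close to the detection limit, at which 3 counts equal 0.160 to 0.245 CPM. Ly6i had 61 counts over 13 libraries, Ly6c2 had 24 over 9 and Ly6c1 had 18 over 7, and neighbours in the order of these genes and 2010109I03Rik overlapped in every group. Ly6d lay wholly above the next gene in both Cdk8 fl/fl groups and overlapped it in both Cdk8 Δ/Δ groups. Ly6k, a testis gene, had 0 counts in every library, which allows up to 0.245 CPM in a library and covers counting error only.

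**Figure D1:**
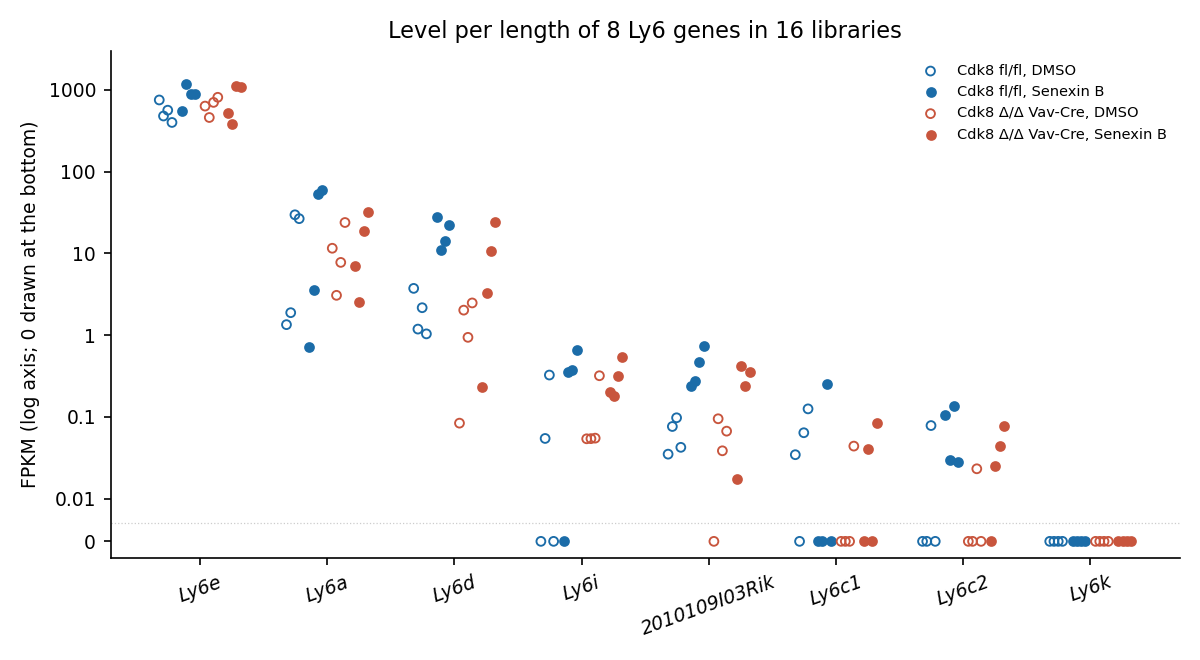
Level per length (FPKM, log axis, values of 0 at the bottom) of the 8 Ly6 genes, one point per library, open for DMSO and filled for Senexin B, blue for Cdk8 fl/fl and red for Cdk8 Δ/Δ Vav-Cre. Ly6e lies between 378 and 1179 FPKM throughout, Ly6a and Ly6d spread over more than a factor of 10, and Ly6k is at 0 in all 16 libraries.

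Ly6d was low in DMSO and higher with Senexin B in all 8 lines, where more cells with Ly6d and more Ly6d RNA per cell cannot be told apart. In Cdk8 fl/fl lines 1 to 4 it stood at 2.77, 0.880, 1.61 and 0.769 CPM with DMSO and at 20.7, 8.09, 10.4 and 16.3 CPM with Senexin B, from 11 to 48 and from 99 to 288 counts. The treated and untreated Cdk8 fl/fl libraries did not overlap, and the ratio within a line ran from 6.49 to 21.2. Across Cdk8 Δ/Δ lines 1 to 4 it stood at 0.0623, 1.501, 0.698 and 1.84 CPM with DMSO and at 0.172, 2.40, 7.94 and 17.7 CPM with Senexin B.

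The Ly6d ratios of the Cdk8 Δ/Δ lines ran from 1.60 to 11.4. Lines 3 and 4 had ratios of 11.4 and 9.65, within the range of the Cdk8 fl/fl lines. Line 2 went from 24 to 35 counts, a ratio of 1.60 (95% counting interval 0.925 to 2.81), and line 1 from 1 to 3 counts, a ratio of 2.76 (0.222 to 145). Both intervals include no change, and that of line 1 also includes the ratios of lines 3 and 4. Line 1 is thus not shown to differ from them, and the values are a description. Cdk8 Δ/Δ line 1 was nearly without Ly6d in either treatment, while the other 7 lines had at least 11 counts with DMSO.

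2010109I03Rik, a little studied member of the family, lies 133 kb from Ly6d on chr15:74876987-74897021 (minus strand) and showed the same direction at a lower level. With DMSO it had 2, 4, 6 and 2 counts in Cdk8 fl/fl lines 1 to 4, and with Senexin B 11, 11, 29 and 32 counts. In Cdk8 Δ/Δ lines 1 to 4 it went from 0, 5, 2 and 3 counts to 1, 20, 13 and 17 counts. Summed over lines, the ratio was 6.78 (95% counting interval 3.82 to 12.9) in Cdk8 fl/fl and 4.98 (2.501 to 11.01) in Cdk8 Δ/Δ. As with Ly6d, the Cdk8 fl/fl groups did not overlap (0.115 to 0.321 against 0.791 to 2.46 CPM), and Cdk8 Δ/Δ line 1 had the lowest value in both treatments. Unlike Ly6d, Cdk8 Δ/Δ line 2 had a ratio, 4.39 (1.60 to 14.97), near those of lines 3 and 4, 6.21 (1.41 to 56.7) and 5.36 (1.55 to 28.6).

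**Figure D2:**
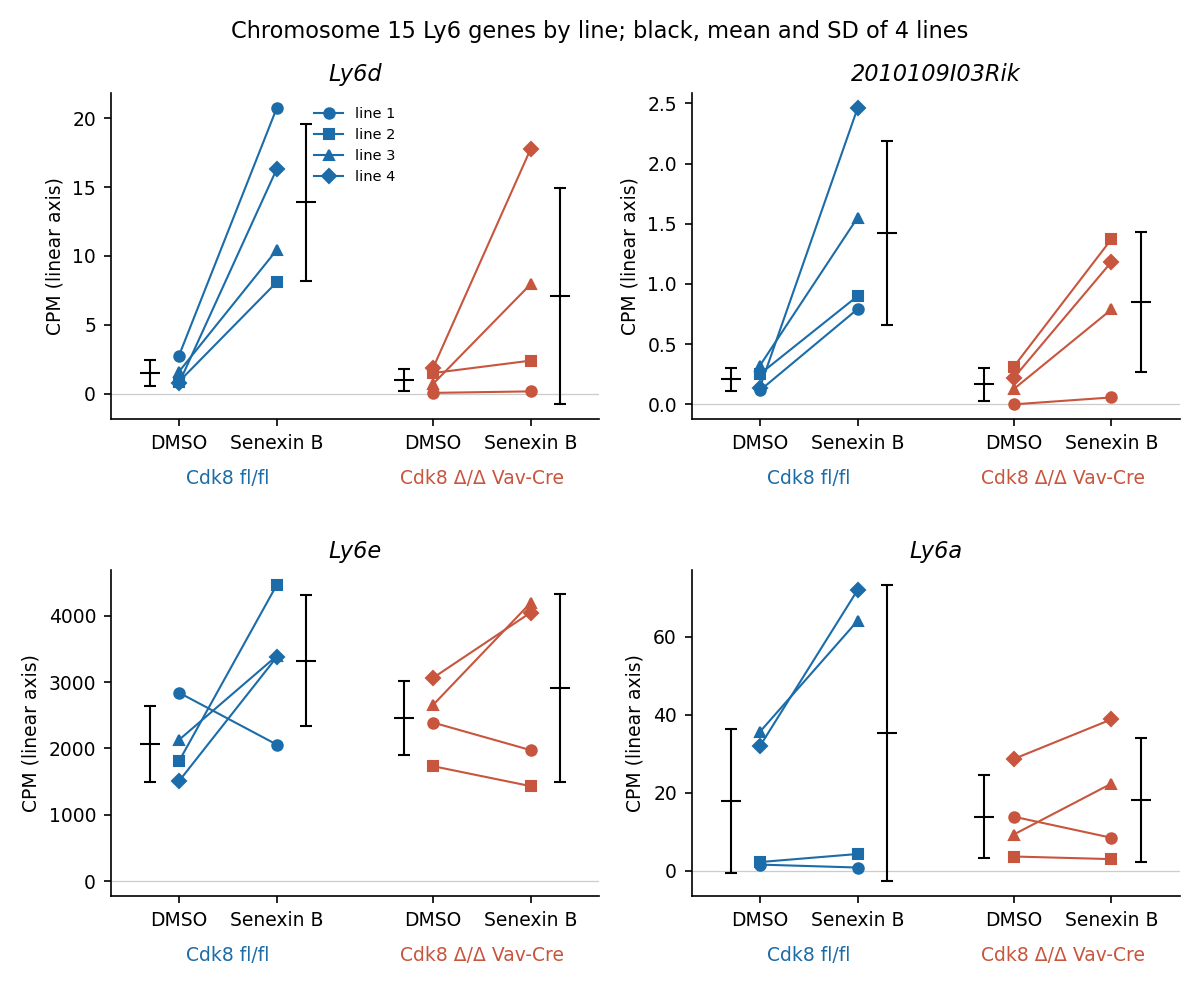
CPM (linear axes) of Ly6d, 2010109I03Rik, Ly6e and Ly6a with DMSO and Senexin B, each coloured line joining the libraries of 1 cell line, with the mean and SD of the 4 lines in black. Ly6d and 2010109I03Rik slope upward in all 8 lines, Ly6d least in Cdk8 Δ/Δ lines 1 and 2, whereas Ly6e and Ly6a slope down in Cdk8 fl/fl line 1 and in Cdk8 Δ/Δ lines 1 and 2.

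Few genes moved in this way. Of 14164 genes that passed the filter on low counts over the 4 groups, 277 (1.96%) were higher with Senexin B in all 8 lines and 367 (2.59%) were lower in all 8. By the mean difference in log2(CPM + 0.5) over lines, Ly6d stood at 2.25 ± 1.21 (SD, n = 8) and had rank 2 among the 277, after the transporter gene Slco1a5 at 2.39. Since the gene was chosen for this pattern, its place is a description. Groups that did not overlap, all higher with Senexin B, were found for Ly6d and 2010109I03Rik in Cdk8 fl/fl, where 0.868% of all genes had them, and for no member in Cdk8 Δ/Δ, where 0.847% had them.

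In the fit over all genes with edgeR, the Senexin B difference in Cdk8 fl/fl was 3.20 on the log2 scale (SE 0.51) for Ly6d and 2.74 (SE 0.52) for 2010109I03Rik. In Cdk8 Δ/Δ it was 2.78 (SE 1.27) for Ly6d, and 2010109I03Rik did not pass the count filter there. Genes were called at a fold change above 2 with an adjusted p below 0.05. Without a term for the line, 0 of the 4 tested members were called in Cdk8 fl/fl, with a background of 0.0% of 12989 genes. An unadjusted p under 0.05 by edgeR was found for 3 of the 4, beside 493 of all 12989 genes. DESeq2 called Ly6d, among 18 calls over all genes. In Cdk8 Δ/Δ 0 of 3 were called (0 at an unadjusted p under 0.05, and 0 by DESeq2), with a background of 0.0% of 13285 genes.

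With the line as a block, 1 of 4 members (Ly6d, 3.24, SE 0.31) was called in Cdk8 fl/fl, where 0.346% of genes were. In Cdk8 Δ/Δ 0 of 3 were called, where 0.0527% of genes were. There 1 of the 3 had an unadjusted p under 0.05 by edgeR, beside 1368 of 13285 genes. Cdk8 fl/fl line 1 stood apart from the other 3 lines of its genotype in Ly6e and Ly6a. With Senexin B both were lower in line 1 and higher in the other 3. For Ly6d and 2010109I03Rik the ratios of line 1, 7.48 and 6.85, lay within the range of the other 3. The DMSO library of line 1 is also the only library whose count header names another folder, and the part of this was not tested. Without line 1 the block fit called 3 of 4 members, Ly6d (3.35, SE 0.33), 2010109I03Rik (2.65, SE 0.48) and Ly6e (1.05, SE 0.21). Beside them 4.15% of all genes were called, or 538 in place of 45, and no other line was left out in this way. These calls come from the contrast used to pick the genes, and nothing is drawn from them.

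Ly6e did not share the uniform direction of Ly6d. In Cdk8 fl/fl lines 1 to 4 it stood at 2839, 1807, 2128 and 1507 CPM with DMSO and at 2058, 4460, 3392 and 3374 CPM with Senexin B. The Cdk8 Δ/Δ lines 1 to 4 stood at 2390, 1733, 2651 and 3061 CPM with DMSO and at 1974, 1432, 4191 and 4045 CPM with Senexin B. It was thus higher in 5 lines, by ratios up to 2.47, and lower in 3, namely Cdk8 fl/fl line 1 (0.725) and Cdk8 Δ/Δ lines 1 and 2 (0.826 each). The mean log2 difference was 0.67 ± 0.80 in the 4 Cdk8 fl/fl lines, 1.05 ± 0.33 in the 3 without line 1, and 0.13 ± 0.48 in the 4 Cdk8 Δ/Δ lines (SD).

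Ly6a (Sca-1), on chr15:74994877-74998031, differed widely between lines. With DMSO it stood at 1.62, 2.26, 35.6 and 32.0 CPM in Cdk8 fl/fl lines 1 to 4 and at 13.9, 3.69, 9.33 and 28.7 CPM in Cdk8 Δ/Δ lines 1 to 4. The highest line was 22.0 times the lowest, and the SD of log2(CPM + 0.5) over the 8 DMSO lines, 1.65, exceeded that of 96.9% of genes, whose median SD was 0.33. For Ly6d the same SD was 0.78 and for Ly6e 0.37.

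With Senexin B Ly6a stood at 0.863, 4.33, 64.1 and 71.9 CPM in Cdk8 fl/fl and at 8.49, 3.02, 22.4 and 38.8 CPM in Cdk8 Δ/Δ. It was lower in the same 3 lines as Ly6e and higher in the same 5. Over the 8 lines the Senexin B differences of Ly6e and Ly6a had a Pearson r of 0.91 and a Spearman rho of 0.76 (r = 0.81 without the 2 lines farthest from the median), whereas their DMSO levels had an r of -0.02. Each point takes both genes from the same 2 libraries, the pair was noticed in the data, and the values are a description.

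**Figure D3:**
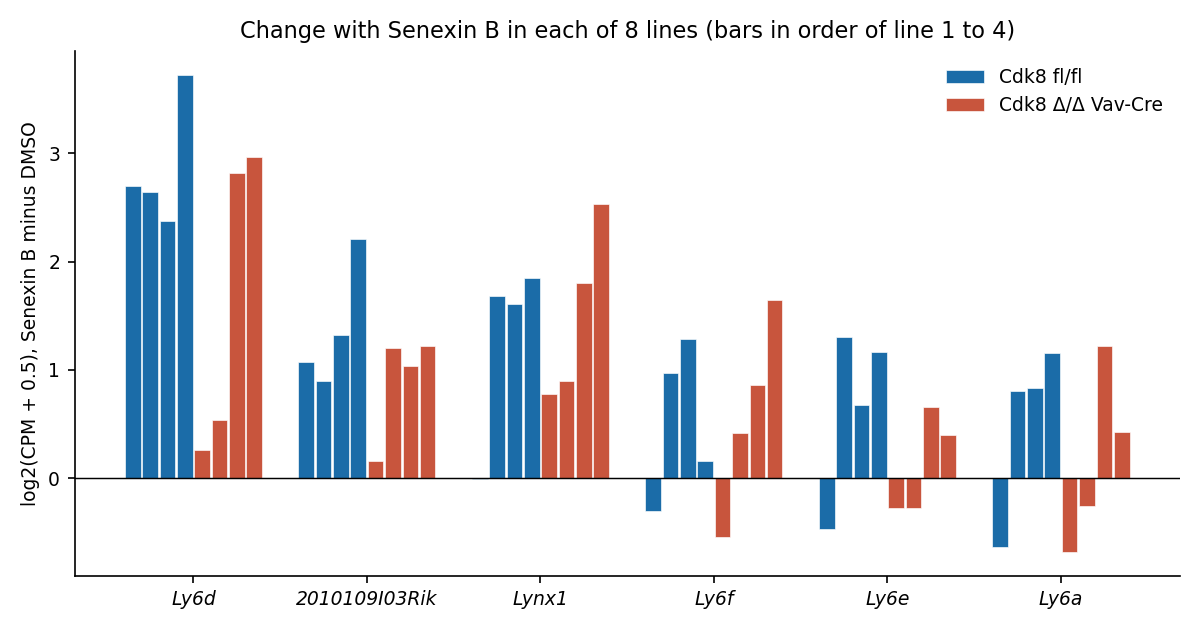
Difference in log2(CPM + 0.5) between Senexin B and DMSO in each line, as bars from line 1 to line 4, blue for Cdk8 fl/fl and red for Cdk8 Δ/Δ Vav-Cre. The LU genes Lynx1 and Ly6f are added. All 8 bars of Ly6d and of 2010109I03Rik are above 0, and the bars of Ly6e and Ly6a are below 0 in the same 3 lines.

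Ly6i, Ly6c1 and Ly6c2 had too few counts to be tested. Ly6i was higher with Senexin B in 7 of 8 lines. It went from 8 to 23 counts summed over the Cdk8 fl/fl lines and from 8 to 22 over the Cdk8 Δ/Δ lines, ratios of 3.29 (95% counting interval 1.42 to 8.51) and 2.69 (1.15 to 6.98), and Cdk8 fl/fl line 1 had none in either treatment. Ly6c2 went from 5 to 19 counts over all 8 lines and Ly6c1 from 7 to 11, ratios of 4.02 (1.45 to 13.8) and 1.66 (0.588 to 5.05). Line 3 of Cdk8 fl/fl alone held 11 of the 24 Ly6c2 counts and 10 of the 18 Ly6c1 counts.

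Genotype was tested next, a contrast the choice of genes did not rest on. With DMSO, Ly6d had a log2 fold change of -0.56 in Cdk8 Δ/Δ against Cdk8 fl/fl (SE 0.77, adjusted p = 0.946 by edgeR). The 4 Cdk8 Δ/Δ lines, at 0.0623 to 1.84 CPM, overlapped the 4 Cdk8 fl/fl lines, at 0.769 to 2.77 CPM. Ly6a differed by -0.36 (SE 1.03, adjusted p = 0.977 by edgeR) and Ly6e by 0.25 (SE 0.24, adjusted p = 0.921 by edgeR). Of the 3 members tested 0 were called (0 at an unadjusted p under 0.05, and 0 by DESeq2), beside 0.00759% of 13174 genes, a background of 1 gene, the seminal vesicle gene Sva. The groups overlapped for all 8 members, where 3.06% of genes had groups that did not. The Ly6a difference rested on Cdk8 fl/fl lines 3 and 4: without the DMSO library of line 3 it was 0.21, and without that of line 4 it was 0.06.

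With Senexin B in both genotypes, the 4 tested members had values below 0 for Cdk8 Δ/Δ against Cdk8 fl/fl, none of them beyond the spread of the lines. The log2 fold change was -0.98 for Ly6d (SE 0.98), -0.75 for 2010109I03Rik (SE 0.72), -0.96 for Ly6a (SE 1.22) and -0.19 for Ly6e (SE 0.39), each with an adjusted p of 1 by edgeR. The count of calls was 0 of 4 (0 at an unadjusted p under 0.05, and 0 by DESeq2), with a background of 0.0% of 13010 genes, and the groups overlapped for all 8 members, where 1.05% of genes had groups that did not. 2010109I03Rik passed the count filter only through the Senexin B groups, where its counts were higher.

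No difference between genotypes in the response to Senexin B was called for a member. For Ly6d and 2010109I03Rik the values rest on the differences used to choose them. 2010109I03Rik also passed the count filter only through the Senexin B groups. The difference of differences, Cdk8 Δ/Δ minus Cdk8 fl/fl, was -0.41 on the log2 scale for Ly6d (SE 1.37), -0.42 for 2010109I03Rik (SE 1.19), -0.60 for Ly6a (SE 1.72) and -0.44 for Ly6e (SE 0.48), each with an adjusted p of 1 by edgeR. Here 0 of 4 members were called (0 at an unadjusted p under 0.05, and 0 by DESeq2), with a background of 0.0% of 14164 genes. That fit has no term for the line, so its standard errors also hold differences in level between lines. With the line as a block the standard errors shrank, to 0.65 around -0.74 for Ly6d and to 0.39 around -0.55 for Ly6e (adjusted p = 0.991 for each by edgeR), and again 0 of 4 were called. Standard errors of this size do not show equal responses.

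Along the chromosome, the higher values with Senexin B were not evenly spread. Of 52 genes within 500 kb of the outermost members, 25 had no count and 12 passed the count filter. Among the 8 of these that are no members, 1 had a mean log2 difference over 1, Lynx1, which lies 10.6 kb from the Ly6d start site and encodes an LU protein that binds nicotinic acetylcholine receptors. Over all 14164 genes 0.572% had such a mean.

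Lynx1 went from 15, 24, 50 and 11 counts to 12, 73, 172 and 53 in Cdk8 fl/fl lines 1 to 4, and from 2, 28, 45 and 15 to 10, 54, 185 and 126 in Cdk8 Δ/Δ lines 1 to 4. It was higher in 7 of 8 lines and level in Cdk8 fl/fl line 1, at 0.866 and 0.863 CPM. In that same line Ly6d reached its highest value of all, so the neighbours parted there. By edgeR its log2 fold change was 1.79 in Cdk8 fl/fl (SE 0.69, adjusted p = 1), and 2.05 in Cdk8 Δ/Δ (SE 1.00, adjusted p = 1). With the block it was 1.64 (SE 0.38, adjusted p = 0.151 by edgeR) and 2.00 (SE 0.33, adjusted p = 0.132), neither of them called. In Cdk8 fl/fl without line 1 and with the block it was called, at 2.00 (SE 0.27, adjusted p = 0.00205 by edgeR), where 4.15% of all genes were. That fit leaves out the only line in which Lynx1 was not higher, so nothing is drawn from the call. The next largest mean differences were 0.76 ± 0.42 for Them6, 42.4 kb from Ly6d and beyond Lynx1, and 0.57 ± 0.47 for Gm6610, between 2010109I03Rik and Ly6e (SD, n = 8). Both were higher in all 8 lines, as was Jrk (0.37 ± 0.26), beside 1.96% of all genes. Ly6f stood at 0.56 ± 0.77 and was higher in 6 of 8 lines. Ly6e and Ly6a, 191 and 234 kb from Ly6d, had means of 0.40 ± 0.68 and 0.36 ± 0.78.

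**Figure D4:**
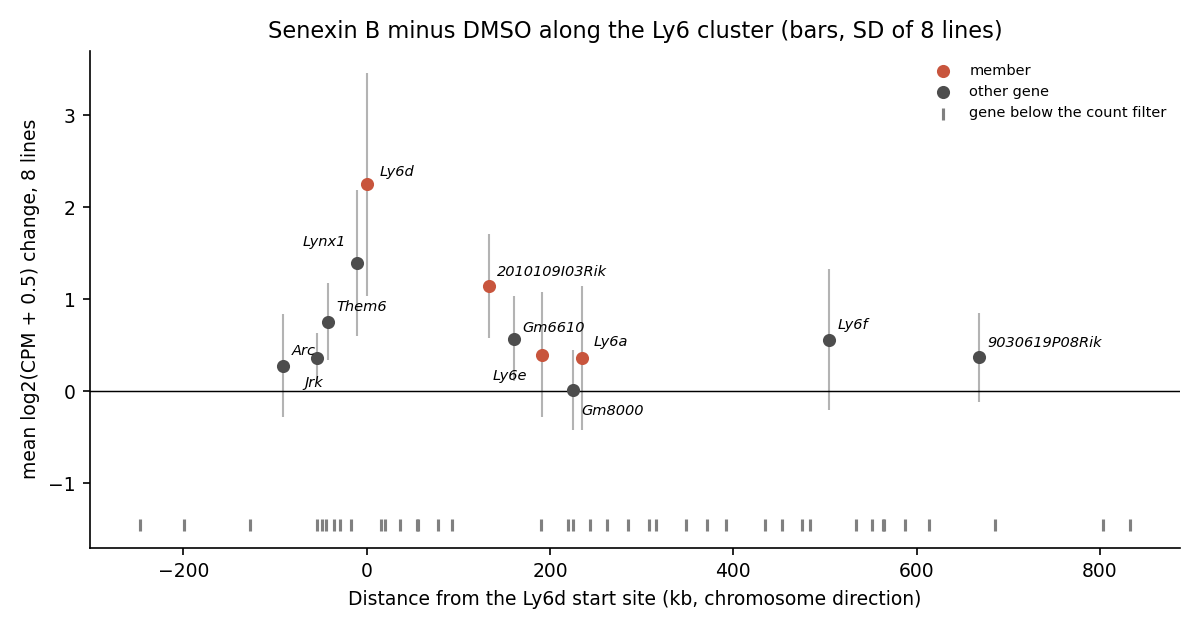
Mean difference in log2(CPM + 0.5) between Senexin B and DMSO over 8 lines (bars, SD) against the distance in kb from the Ly6d start site, for genes that passed the count filter, with ticks at the bottom for genes that did not. The values are highest at Ly6d (2.25) and its neighbour Lynx1 (1.40) and reach 1.14 at 2010109I03Rik, and no gene that passed the count filter has a mean below 0.

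Over the 16 libraries, the genes whose log2(CPM + 0.5) was most like that of Ly6d were Slco1a5 (r = 0.92), Scube3 (0.91), Pyroxd1 (0.88), Mbd1 (0.85) and Gm8602 (0.85). 2010109I03Rik had rank 6 with r = 0.84, and Ly6d had rank 3 for 2010109I03Rik, after Pold1 (0.91) and Vars2 (0.89) and before Wdfy4 and Gm9531 (0.84 each). Ly6e and Ly6a ranked 451 and 4814 for Ly6d, with r of 0.58 and 0.14. Closest to Ly6e was Cd24a, itself a GPI-anchored B cell surface protein (r = 0.89), and closest to Ly6a was Fn1 (r = 0.91). These are descriptions over 16 libraries that share lines in pairs, and they were picked as the highest of all genes. Cd24a and Fn1 were named after their values were seen.

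Other lists of the pathway gave few calls. Of 13 further LU genes of the cluster with a row of their own in the counts, only Lynx1 and Ly6f had counts enough to be tested, and of 19 LU genes elsewhere only Plaur, the urokinase receptor, and Ly6g5b. Ly6f had a log2 fold change of 1.11 with Senexin B in Cdk8 fl/fl (SE 1.12, adjusted p = 1 by edgeR), which did not pass the test, and was higher in 6 of 8 lines.

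The genes that build and attach the GPI anchor, on which surface display of Ly6 proteins depends, were nearly all expressed. Of 28 tested with Senexin B in Cdk8 fl/fl 14 were higher and 14 lower, with a median log2 difference of -0.01 beside 0.02 over all genes. None was called by edgeR or DESeq2, and 1 had an unadjusted p under 0.05 by edgeR, beside 493 of all 12989 genes. The lowest p was that of Pgap1, the lipid remodelling enzyme (-1.16, SE 0.44, adjusted p = 1 by edgeR). In Cdk8 Δ/Δ 18 of 28 were higher, with a median of 0.04.

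Ly6e and Ly6a are known to respond to interferon, and other interferon-induced genes were read beside them. With Senexin B in Cdk8 fl/fl 23 of 29 were lower, with a median log2 difference of -0.38 beside 0.02 over all genes, and none was called by edgeR or DESeq2 (2 at an unadjusted p under 0.05). Gbp2, an interferon-induced GTPase, stood at -1.61 (SE 0.53, adjusted p = 1 by edgeR). With the block 0 of 29 were called (12 at an unadjusted p under 0.05), and with the block and without line 1 3 of 32 (Irf7, Gbp2 and Zbp1), beside 4.15% of all genes. Of all 12989 genes in Cdk8 fl/fl, 493 had an unadjusted p under 0.05 by edgeR without the block and 1343 with it. The Cdk8 Δ/Δ lines had 18 of 28 lower, with a median of -0.12. By line the median of the 33 genes was -0.93 in Cdk8 fl/fl line 1 and -0.29 and -0.56 in Cdk8 Δ/Δ lines 1 and 2, where Ly6e and Ly6a were lower. In Cdk8 fl/fl lines 2, 3 and 4, where both were higher, it was -0.18, -0.28 and -0.60. In Cdk8 Δ/Δ lines 3 and 4, where both were higher as well, it was 0.21 and 0.04. Over the 8 lines the list had a Pearson r of 0.42 with the Ly6e difference and 0.53 with that of Ly6a. Without the 2 farthest lines r was 0.09 and 0.34. A part of interferon was not tested.

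Early B cell genes, among which Ly6d is a stage marker, gave 17 of 21 higher with Senexin B in Cdk8 fl/fl, with a median of 0.20 beside 0.02 over all genes, and 0 called by edgeR or DESeq2 (2 at an unadjusted p under 0.05). The surrogate light chain genes Vpreb1 and Igll1 stood at 0.56 (SE 0.22) and 0.64 (SE 0.28), and Flt3, a progenitor receptor, at -2.07 (SE 0.98), each with an adjusted p of 1 by edgeR. With the block 0 of 21 were called (5 at an unadjusted p under 0.05), and without line 1 as well 4 of 21 (Il7r, Flt3, Dntt and Rag2), beside 4.15% of all genes. The unadjusted limit was passed in Cdk8 fl/fl by 493 of 12989 genes without the block and by 1343 with it. In Cdk8 Δ/Δ 10 of 20 were higher, with a median of -0.01.

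Between genotypes with DMSO the recombinase genes Rag1 and Rag2 had log2 fold changes of 3.51 (SE 0.70) and 3.60 (SE 0.93) in Cdk8 Δ/Δ against Cdk8 fl/fl (adjusted p = 0.897 for each by edgeR, called by DESeq2), the 2 DESeq2 calls among 21 early B genes, beside 21 among all 13174 genes. The paper's pathway analysis instead lists both genes among those significantly lower in Cdk8 Δ/Δ, at a fold change above 2 and a looser adjusted p limit. The cause of the opposite direction was not tested. Whether these differences bear on Ly6d was not tested either.

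Promoter sequences from RefSeq (GRCm38.p6, 300 bases around each start) were matched for 2 of the 8 members, Ly6c1 and Ly6c2. On either strand, the E-box letters CANNTG were in the promoters of both, as in 72.3% of 32851 promoters of that length, and the letters TATAAA in 1 of the 2 promoters of Ly6c1, as in 13.6%. The STAT letters TTCNNNGAA (8.30% of promoters), the interferon response element (3.44%) and the EBF letters CCCNNGGG (13.7%) were in neither, which says only that these letters are not in these windows.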

How the data were processed

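RNA of 8 cell lines, each with DMSO and with Senexin B, had been read as single-end mRNA-seq. The authors trimmed reads with Trimmomatic, mapped them with STAR to GRCm38 and counted them per GENCODE M13 gene with featureCounts 1.5.1, and deposited raw counts without normalization and without a strand option. In 15 of 16 files the header names a folder "modified", and the exception is the DMSO library of Cdk8 fl/fl line 1. What was modified is not stated, and whether this bears on the values of that line was not tested. Groups came from the labels.

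Groups were compared with edgeR 4.0.16 under R 4.3.3 (TMM, filterByExpr, robust quasi-likelihood test, Benjamini-Hochberg adjustment over all genes tested), each fit on the 8 libraries compared and the interaction on all 16. A standard error was derived from the fold change and its F statistic. Ratios of counts carry exact binomial 95% intervals, which cover counting error only. FPKM used the gene lengths in the files. Alternatives were DESeq2 1.42.0, RLE factors, no filter, at least 10 counts in every library, all libraries in 1 fit, the line as a block, and leaving out Cdk8 fl/fl line 1 or each library. Libraries with the same number had correlated deviations from their group means (r from 0.586 to 0.870 in each of 8 pairs), so the number marks the line.

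The members and gene lists were chosen with earlier results of these data known. Named genes are the members, Cdk8, up to 3 genes of smallest p per list and comparison, the 3 neighbours within 500 kb with the largest change, and the 5 genes most like Ly6d and 2010109I03Rik. Jrk was added as a further neighbour higher in all 8 lines. On simulated data with 200 changed genes, the genotype comparison in DMSO (13174 genes) recovered 22% of 2-fold and 78% of 4-fold changes, genotype with Senexin B (13010 genes) 8% and 54%, and the interaction (14164 genes) 10% and 36%. In the data these comparisons called 1, 0 and 0 genes, and fewer calls mean a stricter adjusted limit. The changed genes were drawn from all tested genes, whereas the DMSO spreads of Ly6d and Ly6a exceeded those of 86.1% and 96.9% of genes. These shares may therefore overstate what could be recovered for the members. Sequences came from GENCODE M21 transcripts (GRCm38) and RefSeq promoters, and motifs were counted on both strands.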

Additional observations from a re-analysis of the deposited data

Results flagged for a closer look

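In groups of 4 libraries, 6 of 28 sets of member values had a library whose distance to the nearest other, as a share of the group's range, exceeded Dixon's critical value. About 1.4 would be expected for normally distributed values, which counts near 0 are not. All 6 were highest values of genes with hardly any counts. A group with a single library above 0 exceeds the critical value by construction, so nothing is drawn from the number. Ly6c1 stood at 0.428 CPM (8 counts) in the Senexin B library of Cdk8 fl/fl line 3, with 0 in the other 3, and at 0.0735 CPM (1 count) in the DMSO library of Cdk8 Δ/Δ line 4. Ly6c2 stood at 0.214 CPM (4 counts) in the DMSO library of Cdk8 fl/fl line 3 and at 0.0634 CPM (1 count) in that of Cdk8 Δ/Δ line 3. Ly6i stood at 0.375 CPM (7 counts) in the DMSO library of Cdk8 fl/fl line 3 and at 0.368 CPM (5 counts) in that of Cdk8 Δ/Δ line 4. Cdk8 fl/fl line 3 thus held the outlying library for each of the 3 genes, which share 50-base words with each other or with Ly6a, and their part in these counts was not tested.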

How the results depend on the processing

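Over all genes, genotype in DMSO gave 1 call by edgeR, 21 by DESeq2, 0 with at least 10 counts in every library and 0 to 0 without any 1 library. Genotype with Senexin B gave 0, against 3 by DESeq2, 1 with no filter on low counts and 1 with all 16 libraries in 1 fit. Senexin B in Cdk8 fl/fl gave 0, against 18 by DESeq2 and 3 with no filter. With the line as a replicate block it gave 45, and 538 when line 1 was also left out. Senexin B in Cdk8 Δ/Δ gave 0, and 7 with the block. The interaction gave 0 with and without the block. Among the members the block alone changed the call of Ly6d in Cdk8 fl/fl, and the block without line 1 those of Ly6d, 2010109I03Rik and Ly6e. DESeq2 without a block also called Ly6d there. The block changed no other call of a member.

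Leaving out 1 library turned the sign of 6 uncalled log2 values of the members. The genotype value of Ly6a with DMSO ran from -0.999 to 0.21, and that of Ly6e with Senexin B from -0.42 to 0.038, above 0 without Cdk8 Δ/Δ line 2. The interaction ran from -1.42 to 0.022 for Ly6d (above 0 without the DMSO library of Cdk8 Δ/Δ line 4), from -0.82 to 0.10 for 2010109I03Rik (without that of line 2) and from -1.28 to 0.036 for Ly6a (without that of line 4). For Ly6a 14 of 16 such fits kept the sign, so leaving out a further library turned it as well. The Senexin B value of Ly6a in Cdk8 Δ/Δ, a description, ran from -0.30 to 1.02 and was below 0 without the Senexin B library of line 4. The cause was not tested. At 3 counts a library resolves no less than 0.160 to 0.245 CPM, so the Ly6c1 and Ly6c2 ratios carry counting intervals only, with no test over lines. Reads that Ly6a, Ly6i, Ly6c1 and Ly6c2 share were not recovered.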
